A study of Mus musculus with 48 samples.

Results

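The immediate early genes examined here are 10 genes that neurons switch on when they fire: Arc, Fos, Fosb, Junb, Egr1, Egr2, Egr4, Nr4a1, Npas4 and Dusp1. They were taken by gene name from the array annotation, with control spots left out, and each is read by 1 probe, so that 10 of the 55681 probes are described. Total RNA of the medial prefrontal cortex (mPFC) and of the blood cell pellet of the same mice was hybridized to one-colour Agilent arrays, 1 array per mouse and tissue. All mice were female C57BL/6J, 17 weeks old, and there were 6 in each of 4 groups: sham-operated and not stressed (control mice), sham-operated and exposed to chronic ultra-mild stress (CUMS mice), ovariectomized and not stressed (OVX mice), and ovariectomized and exposed to CUMS (OVX+CUMS mice). Sampling was done under pentobarbital anaesthesia, on the day after the stress schedule ended, and the mPFC was cut from a coronal slice, so that the tissue holds all cell types of that block. The paper places its behavioral tests on that day too, and whether the sampled mice were among those tested is not known here. Each week of the stress schedule ended with a reversed light cycle. The part of either in the values below was not tested.

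Immediate early genes are transcribed within minutes of synaptic input, without new protein synthesis, by factors that are already in the nucleus, such as CREB and SRF. Most encode transcription factors that act on later genes, while Arc protein works at the synapse, where it promotes the removal of AMPA receptors, and Dusp1 is a phosphatase that switches MAP kinases off again. Their messages decay quickly, so the level in a dissected tissue reads recent activity of its cells. In a dissected block, more cells that express a gene and more RNA per cell cannot be told apart.

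Values are normalized log2 signals, that is the log2 of the background-subtracted intensity minus the 75th percentile of the same array, and they compare mice for 1 probe but not probes with each other. In mPFC all 10 genes were well above background on all 24 arrays. The Arc probe lies on chromosome 15 of mm9 at 74499592 to 74499651, the Nr4a1 probe on chromosome 15 at 101105071 to 101105130 and the Fos probe on chromosome 12 at 86817900 to 86817959. The Fos probe is printed on 10 spots, and the SD of log2 intensity among them was 0.0297 to 0.177 on the mPFC arrays. In blood only Fosb, Junb, Nr4a1 and Dusp1 passed the detection rule, which asks for a clear signal on all 24 arrays of the tissue. Fos and Egr1 were above background on 23 of 24 blood arrays, Arc, Egr2 and Npas4 on 13, and Egr4 on 0. Of the whole array, 28360 probes were detected in mPFC and 20768 in blood, and the 75th percentile was 572 to 689 in mPFC and 54.9 to 192 in blood. The mPFC arrays carried the markers of cortical excitatory neurons (6 of 6 genes on all arrays) and of inhibitory neurons (6 of 6), and also those of striatal projection neurons, which lie next to the slice (8 of 8). The arrays lay on 3 slides of 8 in both tissues. All 6 control mice and 2 CUMS mice were on slide 1, the other 4 CUMS mice with 4 OVX mice on slide 2, and the last 2 OVX mice with all 6 OVX+CUMS mice on slide 3, so that control and OVX+CUMS mice shared no slide. OVX+CUMS mouse 5 stood apart in both tissues in the summed signal of the neutrophil markers. Only detected markers were summed, 3 of 8 in mPFC and 7 of 8 in blood. The sum was 4130 in mPFC, against 313 to 737 in the other mice, and 464000 in blood, against 19100 to 151000. The source of these transcripts was not tested.

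The promoters that were read share a short motif. This is not independent of the choice of genes, since CREB is named above among the factors that transcribe immediate early genes. Promoters were read from RefSeq start sites (GRCm38.p6) for 8 of the 10 genes. Arc and Egr1 were left out of this part, so the counts of 8 do not cover them. TGACG, the first 5 bases of the full CRE that CREB binds, was present on either strand in the 250 bases before a start in 8 of these 8 genes, against 19.8% of 27025 genes with such a window. A gene with several starts, such as Egr2, was counted when any of its windows held the motif. The full CRE TGACGTCA, which overlaps it, was found in 1 of 8, Dusp1 (1.77% of all genes). The CArG box, the SRF motif, was matched in its strict form, with only A or T between CC and GG. This form was found in 1 of 8, Egr2 (1.62%), and looser forms were not counted. The TATAAA motif was found in 1 of 8, Fos (14.3%), and the AP-1 site TGANTCA in 0 of 8 (7.82%). These are matches of letters and not measured binding sites, and the shares over all genes were not matched for base composition. The 250 bases before the start of 4 members are given here 5′ to 3′ on the strand of the gene, with every TGACG or its complement CGTCA in capitals. Fos and Nr4a1 were the members most alike across mice, and Npas4 and Dusp1 formed a further close pair.
Fos, chr12:85473640-85473889, + strand: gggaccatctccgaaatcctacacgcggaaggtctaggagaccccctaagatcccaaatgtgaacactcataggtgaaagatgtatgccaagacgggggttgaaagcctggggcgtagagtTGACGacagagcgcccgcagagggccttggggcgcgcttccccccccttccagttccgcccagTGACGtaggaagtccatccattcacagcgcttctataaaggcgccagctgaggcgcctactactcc
Nr4a1, chr15:101266596-101266845, + strand: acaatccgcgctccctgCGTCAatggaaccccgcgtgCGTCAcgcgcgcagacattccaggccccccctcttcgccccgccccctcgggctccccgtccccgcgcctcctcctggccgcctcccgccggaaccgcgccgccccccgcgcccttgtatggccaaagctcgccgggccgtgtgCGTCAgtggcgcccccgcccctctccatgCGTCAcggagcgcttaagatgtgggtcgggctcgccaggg
Npas4, chr19:4989972-4990221, - strand: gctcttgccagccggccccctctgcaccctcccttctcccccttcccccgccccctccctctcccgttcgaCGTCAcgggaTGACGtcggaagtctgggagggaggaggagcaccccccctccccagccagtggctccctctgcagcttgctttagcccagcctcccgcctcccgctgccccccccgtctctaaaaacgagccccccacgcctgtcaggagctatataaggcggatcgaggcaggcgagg
Dusp1, chr17:26508473-26508722, - strand: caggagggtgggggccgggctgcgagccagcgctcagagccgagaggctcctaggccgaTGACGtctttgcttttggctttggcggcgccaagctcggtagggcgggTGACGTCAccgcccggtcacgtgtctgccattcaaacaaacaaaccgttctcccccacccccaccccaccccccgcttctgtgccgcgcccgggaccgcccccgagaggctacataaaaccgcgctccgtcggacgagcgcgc
The Nr4a1 window holds 4 such matches, that of Dusp1 holds 3, and those of Fos and Npas4 hold 2 each. In Dusp1, 2 of the matches overlap, on opposite strands, within the full CRE.

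Arc and Nr4a1 were higher in the mPFC of mice exposed to CUMS, and the estimate lay above 0 for all 10 genes. Neither gene passed in limma with slide as a block (Arc 0.69, adjusted p = 0.525, Nr4a1 0.42, adjusted p = 0.598) or with no detection filter. The CUMS effect is the mean of the stressed minus the non-stressed mice over both kinds of surgery, estimated from all 24 mPFC arrays. Arc had the largest estimate. Its normalized log2 signal in control mice ran from 2.90 to 4.64 with a median of 3.84. CUMS mice had 4.66 to 5.02 (median 4.81), OVX mice 3.12 to 4.21 (3.67) and OVX+CUMS mice 3.57 to 4.86 (4.50). Every CUMS mouse therefore lay above the highest control mouse, which holds for 1.71% of detected probes, while the OVX+CUMS mice overlapped both non-stressed groups and 4 of 6 lay above the highest OVX mouse. The CUMS effect on Arc was 0.88 on the log2 scale (standard error 0.18, 95% confidence interval 0.51 to 1.24), a 1.84-fold difference, with an adjusted p of 0.0185 in limma. The CUMS mice were also close to each other, with an SD of 0.14 against 0.65 in control mice.

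**Figure D1:**
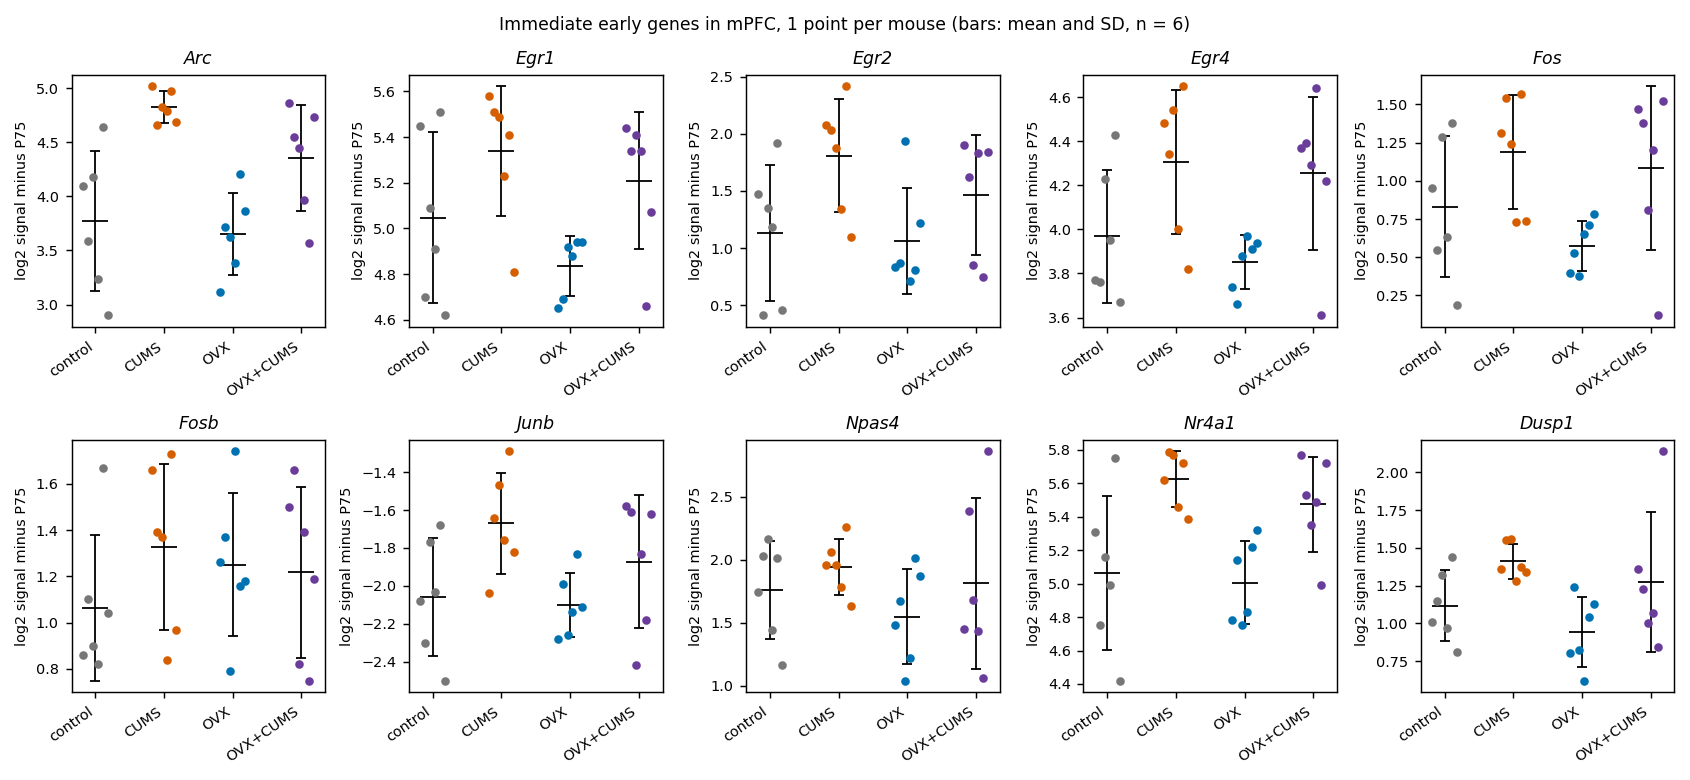
Normalized log2 signal of the 10 genes in mPFC (y axis, log2 units relative to the array's 75th percentile), 1 point per mouse, by group, with the mean and SD of 6 mice as bars. The CUMS mice lie at 4.66 to 5.02 for Arc, above all control mice, whereas CUMS and control mice overlap for the other genes.

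Nr4a1, an orphan nuclear receptor that acts as a transcription factor, was the other gene past the threshold. Control mice had a signal of 4.42 to 5.75 (median 5.08), CUMS mice one of 5.39 to 5.79 (5.67), OVX mice one of 4.75 to 5.32 (4.98) and OVX+CUMS mice one of 4.99 to 5.77 (5.51). All 6 CUMS mice were above the control median and 2 above the highest control mouse, and 5 of 6 OVX+CUMS mice were above the highest OVX mouse. All OVX mice lay below all CUMS mice, as for Arc and Dusp1, which holds for 0.444% of detected probes. These 2 groups differ in both surgery and stress. The CUMS effect was 0.51 (standard error 0.12, adjusted p = 0.0279 in limma), a 1.43-fold difference. Without CUMS replicate 5 it was 0.50 with an adjusted p of 0.0535, and over all single arrays left out the adjusted p ran from 0.00905 to 0.0535.

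The Egr genes encode zinc finger transcription factors. For Egr2 the range was 0.41 to 1.92 among controls (median 1.27), 1.10 to 2.42 after CUMS (1.95), 0.71 to 1.94 after OVX (0.85) and 0.75 to 1.90 after both (1.73), so that all groups overlapped. Its CUMS effect was 0.54 (standard error 0.20) and did not pass the threshold (adjusted p = 0.111 in limma). For Egr4 control mice had 3.67 to 4.43, CUMS mice 3.82 to 4.65, OVX mice 3.66 to 3.97 and OVX+CUMS mice 3.61 to 4.64, with an effect of 0.37 (adjusted p = 0.0602). Egr1 had 4.62 to 5.51, 4.81 to 5.58, 4.65 to 4.94 and 4.66 to 5.44 in the same order, and an effect of 0.33 (adjusted p = 0.0807). In both Egr1 and Egr4, 5 of 6 OVX+CUMS mice lay above the highest OVX mouse, and the remaining one was mouse 5.

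Fos, Fosb and Junb encode subunits of the dimeric factor AP-1. For Fos the control mice lay at 0.19 to 1.38 (median 0.79), the CUMS mice at 0.73 to 1.57 (1.28), the OVX mice at 0.38 to 0.78 (0.59) and the OVX+CUMS mice at 0.12 to 1.52 (1.29). The lowest of these values, 0.12, belongs to OVX+CUMS mouse 5, and the other 5 mice of its group were above every OVX mouse. The CUMS effect on Fos was 0.43 (standard error 0.16, adjusted p = 0.103 in limma). Junb, at an intensity of 106 to 256 in mPFC, had an effect of 0.31 (adjusted p = 0.0969), and Fosb one of 0.12 (standard error 0.13, adjusted p = 0.634). Fosb thus had the smallest estimate of the 10, with a confidence interval of -0.16 to 0.39.

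Npas4, a factor induced by calcium entry in neurons and by few other signals, lay at 1.16 to 2.16 in the controls, at 1.63 to 2.26 after CUMS, at 1.04 to 2.01 after OVX and at 1.06 to 2.86 after both, with all groups overlapping. Its effect was 0.23 (standard error 0.17, confidence interval -0.13 to 0.58, adjusted p = 0.453 in limma). Dusp1 had an effect of 0.31 (standard error 0.11, adjusted p = 0.0992), with 0.81 to 1.44 in control mice and 1.28 to 1.56 in CUMS mice. The highest value of both genes came from OVX+CUMS mouse 6, with 2.86 for Npas4 and 2.14 for Dusp1.

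Over the 10 genes the median CUMS effect was 0.35, against 0.01 over all detected probes. Of the 10, 2 passed the adjusted threshold, both higher in stressed mice, where 4.19% of all detected probes passed and 2.33% passed as higher. At an unadjusted p under 0.05 there were 8 of 10, against 23.2% of all detected probes, and 10 of 10 were above 0, against 54.4%. The 10 genes covaried across mice (median r 0.639, given below), so such counts, here and below, do not stand for independent genes. Without OVX+CUMS mouse 5, which was the lowest of its group in every member but Junb, 5 of 10 passed in limma, where 3.19% of detected probes did: Arc, Nr4a1, Fos (0.53), Egr1 (0.39) and Egr4 (0.43). This mouse was singled out after the data were seen, and leaving out a low stressed mouse raises the CUMS estimate. With any single array left out, 5 was the highest count reached. The direction is relative to the 75th percentile of the array. With a shift by the spike-in probes instead, the median of all detected probes moved to -0.11 and that of the 10 genes to 0.22, with 9 of 10 above 0 and Fosb at -0.01.

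**Figure D2:**
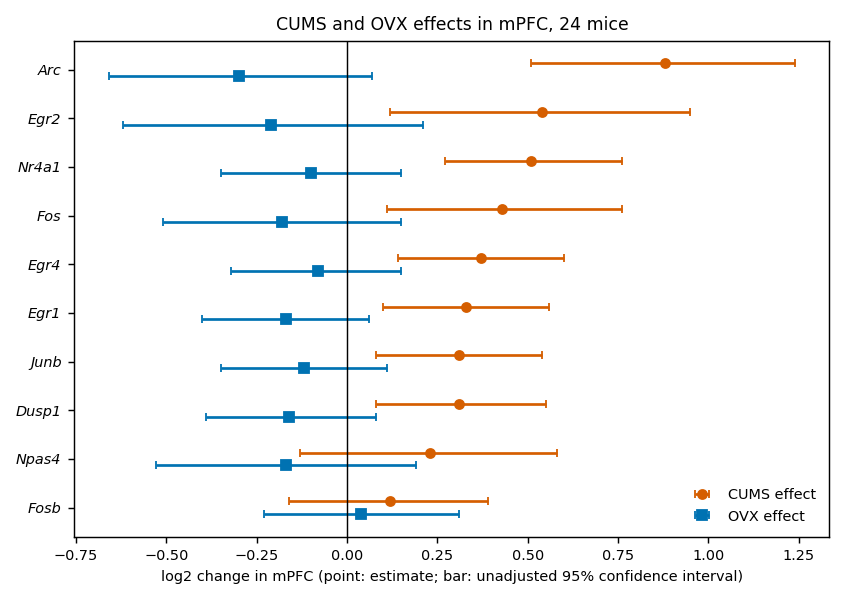
CUMS effect (circles) and OVX effect (squares) on the 10 genes in mPFC in log2 units (x axis), with unadjusted 95% confidence intervals from 24 mice. CUMS estimates run from 0.12 for Fosb to 0.88 for Arc, all above 0, and OVX estimates from -0.30 to 0.04, all with intervals that include 0.

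Slide and group overlapped in part, so the comparisons were also made within slides. On slide 1 the mean of the 2 CUMS mice was above that of the 6 control mice by 1.06 in Arc and 0.64 in Nr4a1. In the other genes the difference was 0.22 to 0.92. No probe passed the threshold on this slide, and in Nr4a1 the mice of the 2 groups overlapped. On slide 2 the 4 OVX mice were below the 4 CUMS mice by 1.36 for Arc (-1.36, standard error 0.13, adjusted p = 0.0431 in limma over all detected probes, of which 0.0423% passed). These groups differ in both surgery and stress, so the slide 2 difference isolates neither. There 9 of the 10 genes were lower in OVX mice, with -0.71 for Nr4a1 and 0.06 for Fosb. On slide 3 the mean of the 6 OVX+CUMS mice was above that of the 2 OVX mice by 0.32 in Arc and 0.20 in Nr4a1. Npas4 was at -0.13, and no probe passed the threshold. In Arc, OVX+CUMS mouse 5 (3.57) lay below both of these OVX mice. The 2 OVX mice on slide 3 had a mean Arc signal of 4.04, above that of the 4 OVX mice on slide 2 (3.46). With slide as a block in the model, 0 of 28360 probes passed. Over all alternatives the adjusted p in limma was 0.0114 to 0.525 for Arc and 0.0231 to 0.598 for Nr4a1. With the block all 10 estimates were above 0 too, between 0.06 for Npas4 and 0.69 for Arc and Egr2.

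Compared with control mice directly, CUMS mice were higher by 1.05 in Arc (adjusted p = 0.00804 in limma, exact permutation p = 0.00216, the smallest that 6 against 6 mice allow) and by 0.56 in Nr4a1 (adjusted p = 0.028, exact permutation p = 0.0173). These were 2 of 10 genes, where 16.9% of detected probes passed. Nr4a1 lost this call when any of control replicates 2 and 6 or CUMS replicates 3 and 5 was left out, with differences of 0.43 to 0.54. In OVX+CUMS mice the difference from control mice was 0.58 for Arc (adjusted p = 0.0761) and 0.41 for Nr4a1 (adjusted p = 0.0658), and 0 of 10 genes passed in limma (2 unadjusted), where 33.4% of detected probes did. Without control replicate 5, or without OVX+CUMS replicate 5, both genes passed, Arc at 0.75 and 0.74 and Nr4a1 at 0.55 and 0.51, where 30.3% and 30.5% of detected probes passed. For both genes these were the highest control mouse and the lowest OVX+CUMS mouse, so leaving either out widens the difference. Over all single arrays left out the adjusted p in limma ran from 0.0197 to 0.2 for Arc and from 0.00985 to 0.18 for Nr4a1.

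Ovariectomy called none of the 10 genes in the mPFC, on a background of 30.9% of detected probes. In limma 0 of 10 passed at an unadjusted p under 0.05 as well, where 41.1% of detected probes did. The OVX effect was below 0 for 9 of 10 genes, where 63% of all detected probes were above 0, with a median of -0.16 against 0.04 over all detected probes. Its largest sizes were those of Arc (-0.30, confidence interval -0.66 to 0.07) and Egr2 (-0.21, confidence interval -0.62 to 0.21), and Fosb had 0.04. The interaction, by how much the CUMS effect was larger after ovariectomy than after sham surgery, lay between -0.35 and 0.16 and passed for 0 of 10 genes in limma (0 unadjusted), where 4.49% of detected probes passed (23.4% unadjusted). The confidence intervals of the interaction were wide, -1.07 to 0.38 for Arc and -0.59 to 0.41 for Nr4a1.

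Other genes of the same response were read from lists chosen with earlier results of these data known. Of 22 further immediate early transcription factors detected in mPFC, 6 were higher with CUMS and 0 lower, with a median of 0.19 against 0.01 over all detected probes, of which 2.33% passed as higher. The 3 largest were Per2 (0.52), a component of the circadian clock that is also induced by activity, Maff (0.48) and Klf2 (0.44). Of 14 genes detected from a list of MAP kinase phosphatases and other signalling regulators, 3 were higher and 0 lower. The 3 were Trib1 (0.46), Dusp6 (0.35), a phosphatase of ERK, and Spred1 (0.21). Among 16 activity-regulated synaptic and secreted effectors, which include Bdnf and Homer1, 0 were higher and 1 was lower, Tac1 (-0.23), with a median of -0.03. Of 24 genes that signal to the immediate early genes, 1 was higher, the NMDA receptor subunit Grin1 (0.15), and of 8 glucocorticoid-induced genes 0 passed in either direction, with a median of 0.09. With CUMS, the medians of the cell type lists in mPFC ran from -0.38 for B cells (2 markers detected) to 0.37 for erythroid cells (4 detected), with 0.28 for neutrophils (3 detected) and -0.19 for oligodendrocytes (6 detected), and markers past the threshold were found in the excitatory and striatal lists. Among the cortical excitatory neuron markers Slc17a7, a vesicular glutamate transporter, was higher (0.15), and the summed signal of the list ran from 67900 to 86900 among controls, 67700 to 80100 after CUMS, 70700 to 77100 after OVX and 69400 to 87200 after both. Of the striatal markers 1 of 8 was lower, again Tac1, with sums of 17600 to 24000, 18200 to 21100, 20400 to 26700 and 15700 to 23100. Their part in the CUMS effect on the immediate early genes was not tested.

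Within a group, the immediate early genes rose and fell together from mouse to mouse. After the mean of each group was subtracted, Pearson's r over the 24 mPFC arrays was above 0 for 45 of 45 pairs, with a median of 0.639 and a range of 0.234 to 0.854. The adjusted permutation p (within groups, 100000 resamples, two-sided, Benjamini-Hochberg over 45 pairs) was under 0.05 for 33 pairs by Pearson's r and for 31 by Spearman's rho. All genes of an array share its RNA and its scaling. Over all pairs of the 28360 detected probes the median r was 0.0085 and 51% were above 0. The 33 member pairs had r of at least 0.466, which 7.75% of all pairs reached, and 2% of all pairs reached the members' median. Fos and Nr4a1 were the closest pair, with r = 0.854 and rho = 0.82 (raw permutation p = 1e-05 for each, the smallest 100000 resamples can give, adjusted p = 0.00045) and r = 0.794 without the 2 arrays farthest from the median of Fos. Arc and Nr4a1 followed with r = 0.846 and rho = 0.796 (permutation p = 4e-05 and 0.00011, adjusted 0.000836 and 0.00165, r = 0.746 without 2 arrays), and Npas4 and Dusp1 had r = 0.797 and rho = 0.769 (permutation p = 0.00012 and 0.00023, adjusted 0.000836 and 0.00172, r = 0.632 without 2 arrays). Egr1 and Dusp1 had the lowest, r = 0.234 and rho = 0.267 (permutation p = 0.316 and 0.23, adjusted 0.323 and 0.246). By the mean r with the other 9 genes, Fos (0.741) and Nr4a1 (0.696) were the most typical members and Fosb (0.443) the least. The pattern was seen on each slide, with medians of 0.775, 0.553 and 0.66 on slides 1, 2 and 3 (8 arrays each) and 45, 44 and 45 pairs above 0, when the mean of each group on the slide was subtracted.

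**Figure D3:**
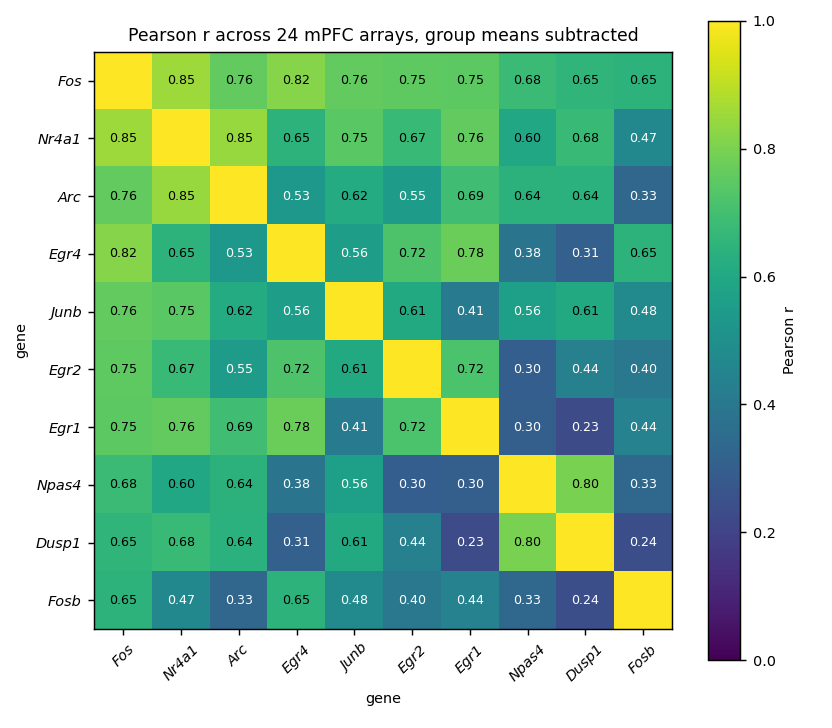
Pearson's r between the 10 genes over 24 mPFC arrays after subtraction of group means (color scale 0 to 1), with genes ordered on both axes by their mean r. All 45 values are above 0, from 0.234 for Egr1 with Dusp1 to 0.854 for Fos with Nr4a1. Npas4 with Dusp1 has 0.797, whereas the values of either with Fosb and the Egr genes are 0.234 to 0.436.

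Some mice lay above or below their group mean in all 10 genes. OVX+CUMS mouse 5 was below its group mean in 10 of 10 genes, on average by 0.61 (-0.61), and control mouse 6 in 10 of 10, on average by 0.49 (-0.49), while control mouse 5 was above its group mean in 10 of 10 (0.54). Smaller shifts in 10 of 10 genes were seen in CUMS mice 4 (-0.24) and 6 (-0.34), below the mean, and 3 (0.11), above it. OVX+CUMS mouse 5 is the one with the high neutrophil sum. Without it, 29 of 45 pairs passed, the median r was 0.572 and all 45 pairs stayed above 0. Of all 20631 gene symbols detected in mPFC other than the members, those with the highest mean r to the 10 genes over the 24 arrays were Dusp6 (0.684), Tiparp (0.669), Sertad1 (0.668), Trib1 (0.652), Csrnp1 (0.645), Arl4d (0.628), Exosc3 (0.608), Gadd45b (0.598), Baz1a (0.568) and Klf10 (0.545), a ranking given with no test.

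In blood the level of Nr4a1 was lower in CUMS than in control mice, the opposite of the mPFC. Among ovariectomized mice it was not lower with stress, with blood means of 3.58 in OVX and 3.65 in OVX+CUMS mice. There the control mice had normalized log2 signals of 3.13 to 3.67 (median 3.48), the CUMS mice of 2.27 to 3.34 (2.70), the OVX mice of 3.30 to 3.89 (3.57) and the OVX+CUMS mice of 3.12 to 4.80 (3.48). In CUMS mice 5 of 6 lay below the lowest control mouse, whereas the OVX+CUMS mice overlapped the OVX and control mice. CUMS mice were lower than control mice by 0.72 (-0.72, standard error 0.21, adjusted p = 0.0171 in limma, exact permutation p = 0.00649), 1 of the 4 detected genes, where 29.7% of detected blood probes passed. Averaged over surgery, the CUMS effect on Nr4a1 was -0.32 (adjusted p = 0.0746, 0.0139 to 0.142 over the alternatives), and none of the 4 genes passed (1 unadjusted), where 48.5% of detected probes did. Without OVX+CUMS mouse 5, whose Nr4a1 value was the highest in blood (4.80, the next 3.63 in its group), the effect was -0.44 with an adjusted p of 0.00474. Over all single arrays left out the adjusted p in limma ran from 0.00474 to 0.137. The OVX effect, averaged over stress, passed for 2 of the 4 genes, where 55.1% of detected probes passed. Nr4a1 was higher by 0.56 (standard error 0.15, adjusted p = 0.00413 in limma), and Fosb was lower by 0.59 (-0.59, standard error 0.17, adjusted p = 0.00717). Between OVX and control mice, both without stress, neither gene passed, where 27.1% of detected probes did. That difference was 0.17 for Nr4a1 (adjusted p = 0.561 in limma) and -0.65 for Fosb (adjusted p = 0.0513). For Fosb the control mice ran from -1.40 to 0.56 (median -1.17), the CUMS mice from -1.28 to -0.66 (-0.90), the OVX mice from -1.89 to -1.0 (-1.65) and the OVX+CUMS mice from -1.96 to -0.97 (-1.49), at intensities of 29.8 to 171, and 5 of 6 OVX mice lay below the lowest control mouse. With slide as a block neither OVX call held, with 0.31 for Nr4a1 and -0.29 for Fosb, and on the spike-in scale Fosb was at -0.25. The interaction in blood passed for 0 of 4 genes in limma (1 unadjusted), where 1.42% of detected probes passed, and for Nr4a1 it was 0.78 (confidence interval 0.16 to 1.40, adjusted p = 0.163). Junb and Dusp1 did not pass for either effect. Blood is a mixture whose markers moved with the groups. With CUMS, 5 of 6 erythroid markers were higher, 4 of 5 B cell and 3 of 5 T cell markers lower, and with OVX 5 of 6 erythroid markers were lower and 3 of 5 B cell markers higher. Their part in the Nr4a1 and Fosb values was not tested.

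**Figure D4:**
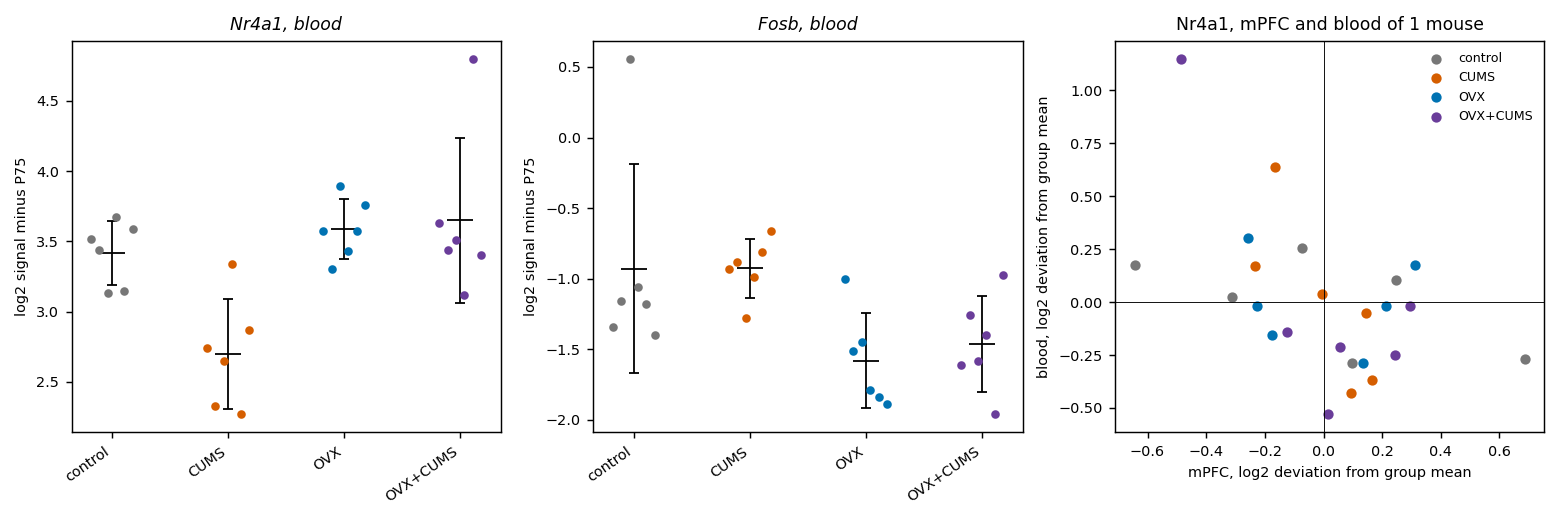
Left and middle, normalized log2 signal of Nr4a1 and Fosb in blood (y axis) by group, 1 point per mouse, with the mean and SD of 6 mice as bars. Right, the log2 deviation of Nr4a1 from its group mean in blood (y axis) against that in mPFC (x axis) of the same mouse, with OVX+CUMS mouse 5 at the upper left. CUMS mice lie at 2.27 to 3.34 in the left panel, against 3.13 to 3.67 for control mice.

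The difference between tissues was tested directly in a model of the 17545 probes found in both tissues, in which the 2 arrays of a mouse formed a block. The CUMS effect on Nr4a1 was 0.51 in mPFC and -0.32 in blood, a difference of 0.84 (standard error 0.19, adjusted p = 0.000873 in limma), and this call held under every alternative tried, with differences of 0.81 to 1.01 and with 1 mouse left out of 0.76 to 1.00. It was 1 of 4 genes, where 51.4% of all probes passed. The OVX effect differed for Nr4a1 by -0.66 (adjusted p = 0.00648) and for Fosb by 0.63 (adjusted p = 0.0186), 2 of 4 genes on a background of 39.3%, and neither passed with slide as a block. Across the 24 mice, after subtraction of group means, the Nr4a1 signal in blood went down as that in mPFC went up, with Pearson's r = -0.52 (permutation p = 0.0058, adjusted p = 0.0232 over 4 genes) and Spearman's rho = -0.469 (permutation p = 0.024, adjusted p = 0.0962). When the 2 arrays farthest from the median mPFC value were left out, r was -0.55 (permutation p = 0.0217, adjusted p = 0.0868), and without OVX+CUMS mouse 5 it was -0.381 (permutation p = 0.0592, adjusted p = 0.237), so the relation rests in part on single mice. With the mean of each group on each slide subtracted, r was -0.574 (permutation p = 0.00333). For Fosb, Junb and Dusp1 r between tissues was -0.0244, -0.0363 and 0.00952 (permutation p = 0.905, 0.89 and 0.976, adjusted p = 0.976 for each).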

How the data were processed

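RNA of the mPFC and of the blood pellet of 24 mice was measured on 48 one-colour arrays. Per the file headers, the authors read the spots with Feature Extraction 10.7.3.1, which gave a background-subtracted intensity in arbitrary units. The deposited log2 values of the authors are these intensities minus the 75th percentile of the array, and 100.0% of the values of probes with 1 spot came within 0.001 of those computed here, up to 1 constant per array. Here, spots marked uneven or as outliers were left out, the log2 values of repeated spots were averaged, and each array was shifted by the 75th percentile of its non-control probes. Detection in a tissue asked that a probe be well above background on all 24 arrays with a processed signal over 50 on at least 2. The number of arrays limits the precision. Probe positions are those of the array design (mm9). Symbols for the other genes came from RefSeq (26747 of 27316 accessions matched).

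Effects were fitted in R 4.3.3 with limma 3.58.1 as surgery, stress and interaction over the 24 arrays of a tissue, with Benjamini-Hochberg adjustment over all detected probes at 0.05, two-sided. Tissue differences had the mouse as a random block (correlation 0.059). Correlations and figures used Python. The models were tested on simulated data. Alternatives were a spike-in shift, normexp background with an offset of 50, quantiles, the percentile taken over detected probes only, no detection filter, no signal minimum, the authors' values, no moderation, slide or replicate number as a block, and leaving out each array in turn. All members are named. From each list, up to 3 genes past the threshold are named by size. The members and lists were chosen with earlier results of these data known. The result of 1 marker gene is not reported here.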

Additional observations from a re-analysis of the deposited data

Results flagged for a closer look

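For each gene detected in a tissue, Dixon's ratio was used to look for a mouse that stood apart within its group. Of 56 groups of 6 arrays, 3 had one, and chance gives about 1 in 20 groups. Fosb in the blood of control mouse 3 was 0.56, with the next highest at -1.06. In mPFC, Fosb of control mouse 5 was 1.67, with the next highest at 1.10. Nr4a1 in the blood of OVX+CUMS mouse 5 was 4.80, with the next highest at 3.63.

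The effect of a treatment differed between mPFC and blood by the test of the difference itself (limma) in 3 cases: the CUMS effect on Nr4a1 (0.84 higher in mPFC), the OVX effect on Nr4a1 (-0.66, lower in mPFC) and the OVX effect on Fosb (0.63 higher in mPFC).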

How the results depend on the processing

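With slide as a block the number of the 10 genes past the threshold became 0 for the CUMS effect, CUMS against control in mPFC and, of the 4 detected, the OVX effect in blood and its tissue difference, and 1 for the CUMS effect in blood (Junb, 0.63). No detection filter gave 0 for the CUMS effect in mPFC, 1 for CUMS against control, and, with all 10 genes then tested, 2 for CUMS and 4 for OVX in blood and 3 for the tissue difference of CUMS. The spike-in shift gave 1 for the OVX effect and 1 for CUMS against control in mPFC, and 1 for each effect in blood. Normexp background gave 1 for OVX+CUMS against control in mPFC (Arc, 0.66) and 1 for CUMS in blood (Nr4a1, -0.42). Within slide 1, CUMS against control gave 0, and 0 of 28360 probes passed. The blood relation of Nr4a1 gave 0 without the 2 farthest arrays and 0 without OVX+CUMS replicate 5, a setting chosen after the data were seen.

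Signs turned with the spike-in shift for Fosb in mPFC (CUMS -0.01, OVX -0.10), for Fosb (-0.24), Junb (-0.05) and Dusp1 (-0.03) with CUMS in blood, and for Junb (0.07) and Dusp1 (0.33) with OVX in blood. With slide as a block they turned for Egr2 with OVX in mPFC (0.09) and in blood for Dusp1 with CUMS (-0.03) and Junb with OVX (0.48). Dusp1 with OVX in blood also turned with normexp background (0.03) and the 75th percentile over detected probes (0.02). None of these values had passed the threshold. With 1 array left out, counts ran from 1 to 5 for the CUMS effect in mPFC, 1 to 3 for CUMS against control, 0 to 1 for the OVX effect (1 without OVX+CUMS replicate 6), 0 to 3 for OVX+CUMS against control and 0 to 1 for CUMS in blood, and did not move for the others. The OVX effect on Fosb in mPFC then ran from -0.01 to 0.10 and on Dusp1 in blood from -0.13 to 0.06. Values of single genes not printed in the report, 44 in all, turned sign in 22 of 435 cases with other settings and in 35 of 1056 with 1 array left out.

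Replicate numbers pair no mice of different groups. With replicate number as a block, 2 genes passed for the CUMS effect in mPFC (Arc 0.88, Nr4a1 0.51), and no call changed. The tissue differences without the mouse as a replicate block kept their calls (Nr4a1 0.84). Other probes of the members could not be tried, since each has 1. The cause of these changes was not tested. In blood, 6 of the 10 genes were not detected on all arrays.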
